A study of Sus scrofa with 22 samples.

Results

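G protein-coupled receptors were examined by transcript level in 3 cell types of the pig endometrium on Day 12. The receptors are the genes of the deposited count tables whose symbol marks an orphan or numbered receptor (GPR, GPRC5), an adhesion receptor (ADGR), a receptor for nucleotides, amines, prostanoids, endothelins, proteases, histamine, acetylcholine or parathyroid hormone, or is 1 of a short list of peptide and prostanoid receptors such as OXTR, CALCRL and AGTR1. The choice used symbols only and no measured value. It gave 62 of the 12401 genes listed in any table, of which 57 were listed for luminal epithelium (LE), 54 for glandular epithelium (GE), 55 for stroma (S) and 47 for all 3. The 62 genes are 14 adhesion receptors, 8 receptors for vasoactive and hormone peptides, 3 prostanoid receptors, 6 amine receptors, 5 nucleotide and nucleoside receptors, 3 protease-activated receptors, 3 GPRC5 genes and 20 numbered GPR genes. Not every gene of the list encodes a classical receptor of this class. NPR3 is the clearance receptor for natriuretic peptides and spans the membrane once, and for several of the numbered genes, among them GPR107, GPR108, GPR137, GPR155 and GPR180, signaling through G proteins is not established.

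G protein-coupled receptors cross the plasma membrane several times and pass the binding of a ligand outside the cell to heterotrimeric G proteins inside it. Gs and Gi proteins raise or lower cyclic AMP through adenylate cyclases, whereas Gq proteins activate phospholipase C and release calcium. Kinases, arrestins and RGS proteins end the signal. In the uterus, OXTR and the prostaglandin F receptor PTGFR couple to Gq, and oxytocin acting on endometrial OXTR releases prostaglandin F during luteolysis. The prostaglandin E receptor PTGER2 couples to Gs.

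The libraries were prepared from cells taken by laser capture microdissection from frozen, stained sections of endometrium, a method that cuts chosen areas out of a section. The 8 animals were prepuberal crossbred gilts of German Landrace and Piétrain, all treated with PMSG and hCG to synchronize ovulation. The 4 pregnant gilts (01, 03, 05 and 14) were inseminated with semen and the 4 cyclic control gilts (02, 04, 06 and 13) with semen supernatant, and all were sampled on Day 12. Every gilt gave 1 LE and 1 GE library, whereas S libraries, also 1 per animal, came from 3 control (02, 04, 13) and 3 pregnant gilts (01, 05, 14). Libraries were made with a kit for very low RNA input, and the captured stroma was described by the study as fibroblasts mixed with other, mainly immune, cells.

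For 4 of the receptors with large changes in LE, the 250 bases upstream of the annotated gene start are shown as the genomic context of their transcription start. They were read from Sscrofa11.1, 5′ to 3′ on the strand of the gene, and the annotated start need not be the one used in the endometrium. Capitals mark matches to a motif on either strand. The core of the cyclic AMP response element is TGACG, and it is also part of the full element TGACGTCA. The AP-1 motif was searched as TGANTCA in these windows. The GC box was searched with the letters GGGCGG and the TATA box of many promoters with the letters TATAAA here. PTGER2 (chr1:181993711-181993960, plus strand) was lower in pregnant LE, and P2RY2 (chr9:7672044-7672293, plus strand), GPR39 (chr15:19801204-19801453, minus strand) and GPRC5B (chr3:25870119-25870368, plus strand) were higher.
PTGER2: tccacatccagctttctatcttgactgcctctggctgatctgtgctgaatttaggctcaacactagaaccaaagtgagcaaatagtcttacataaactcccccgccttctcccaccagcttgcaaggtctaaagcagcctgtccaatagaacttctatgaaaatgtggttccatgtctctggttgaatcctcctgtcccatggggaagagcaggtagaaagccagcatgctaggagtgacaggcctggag
P2RY2: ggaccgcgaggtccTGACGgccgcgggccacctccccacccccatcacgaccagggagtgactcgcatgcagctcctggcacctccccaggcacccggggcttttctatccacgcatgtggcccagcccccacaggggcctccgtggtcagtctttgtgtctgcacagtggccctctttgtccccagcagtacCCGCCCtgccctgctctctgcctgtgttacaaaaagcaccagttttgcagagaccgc
GPR39: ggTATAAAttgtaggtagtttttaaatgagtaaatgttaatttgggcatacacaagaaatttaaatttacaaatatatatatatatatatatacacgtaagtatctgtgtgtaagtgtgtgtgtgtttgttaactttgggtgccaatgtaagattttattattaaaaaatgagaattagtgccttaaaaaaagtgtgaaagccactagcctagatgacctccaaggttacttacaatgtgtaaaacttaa
GPRC5B: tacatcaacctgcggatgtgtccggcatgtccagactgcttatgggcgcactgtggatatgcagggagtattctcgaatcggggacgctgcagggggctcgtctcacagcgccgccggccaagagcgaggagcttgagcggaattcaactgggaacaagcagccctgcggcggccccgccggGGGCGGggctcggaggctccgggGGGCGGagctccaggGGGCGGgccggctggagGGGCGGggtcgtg
The PTGER2 window held none of these motifs, that of P2RY2 held TGACG and a GC box, and that of GPRC5B 4 GC boxes. That of GPR39 held the letters TATAAA at its 5′ end, the end far from the annotated start. GPR39 was also the member with the lowest GC content in this window, 28% against a median of 58.6% for the receptors and 60.4% for all genes. Over all 12397 genes with such a window, TGACG was present in 23%, TGACGTCA in 2.21%, TGANTCA in 4.12%, the GC box in 55.6% and the TATA box in 7.39%. Of the 62 receptor windows, 5 held TGACG, 1 the full cyclic AMP element, 3 TGANTCA, 27 a GC box and 3 a TATA box. The full palindromic estrogen response element was in none of them and in 1 of all 12397 windows. It is too rare for its absence from the receptor windows to be read as a result. The coding sequence lay in a single exon in 17 of the 62 genes, and the median number of coding exons was 3.5. Exon bases of 17 genes were shared with an exon of another gene. Because the use of strand in counting is not given, reads there could not be told apart, and for the named receptors the partner is given where the share was large.

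Depth ranged from 893912 to 4020796 counts on listed genes per library, so that 3 counts, used as the floor, stood for 0.690 to 3.50 CPM (counts scaled to a common library total with the trimmed mean of M values within each table). The shallowest library was pregnant LE of gilt 01. Markers of several cell types were found in each captured type. The summed CPM of 10 fibroblast markers was 11649.8 to 17129 in control LE and 4844 to 8617 in control S, and that of 10 epithelium markers was 2993 to 3829 in control S and 3279 to 3959 in control LE. None of the 10 fibroblast markers and none of the 10 epithelium markers passed the threshold between S and LE, so that the labels LE and S were not told apart by these lists. Pregnant S of gilt 01 had by far the highest sums in S for fibroblast (62835 CPM) and blood endothelium markers (2109 CPM), and control GE of gilt 02 had those in GE (47515 and 1388 CPM). The summed CPM of smooth muscle and pericyte markers was 6100 in pregnant LE of gilt 01, against 537 to 1253 in the other LE libraries. Control GE of gilt 02 had 10595 CPM, the highest in GE. Of the leukocyte markers, CD3E, CD3D, AIF1 and CD79A were listed in none of the tables. In such samples, fewer cells of a type and less RNA per cell cannot be told apart.

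The receptors were mostly weakly expressed. Per kilobase of exon, a scale on which genes can be compared, the median level of the receptors was 7.04 CPM in LE, 5.02 in GE and 6.64 in S, against 9.84, 9.47 and 9.73 for all genes. ADGRA3, an adhesion receptor of unknown ligand, and F2RL2, the protease-activated receptor PAR3, were among the 3 highest in each cell type, with PTGER2 between them in GE. In LE their levels were 90.5 (53.0 to 135) CPM per kb for F2RL2 and 87.0 (50.1 to 123) for ADGRA3 (mean, range over 8 libraries), ranges that overlap almost fully. They were followed by GPRC5B at 35.8 (9.21 to 90.7), ADORA2B at 27.4 (9.14 to 75.7) and NPR3 at 26.6 (4.35 to 63.1) CPM per kb, which also overlapped. GE had ADGRA3 at 92.2 (43.3 to 145), PTGER2 at 79.4 (29.8 to 147), F2RL2 at 63.4 (23.5 to 145), GPRC5C at 59.2 (22 to 139) and EDNRB at 44.6 (23.9 to 83.3) CPM per kb. In S the order was ADGRA3, F2RL2, GPRC5C, PTGER2 and ADRA2A, from 92.4 (42.9 to 159) down to 29.2 (13.4 to 53.2) CPM per kb. The annotated exons of ADRA2A end with the coding sequence, so that its level per kb rests on a short model. In ADORA2B, 75.2% of exon bases were shared with ZSWIM7 on the opposite strand.

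Receptors that differed between pregnant and control gilts were found in LE and S, with both rises and falls. The thresholds, those of the study, differ between cell types, so that counts of calls are read against all genes of the same table. In the study, a p of 0.0021 corresponded to the FDR limit of LE. By the edgeR quasi-likelihood test used here that limit lay at a lower p. OXTR in LE, for example, had an unadjusted p of 0.00140 and an FDR of 0.0125. The limit in GE and S was therefore looser than that in LE. Of 57 receptors, 13 passed the threshold of LE (FDR below 0.01, edgeR quasi-likelihood test), 8 higher and 5 lower in pregnant gilts. Over all genes of LE, 10.0% passed, 6.33% higher and 3.71% lower. EDNRA, P2RY2, GPR39, HTR1D, GPRC5B, GPR160, NPR3 and GPR180 rose between 4.40-fold and 9.47-fold, and GPR83, PTGER2, ADGRL1, GPR161 and F2R fell. The pregnant and control LE libraries did not overlap in 20 receptors, beside 26.7% of all genes. By the exact test of edgeR 19 receptors passed in LE and by DESeq2 18, both with all 13 of these and with ADRA2A, BDKRB2, GPR153, GPRC5A and PTGFR, and the exact test also with OXTR. Of all LE genes, 18% passed by the exact test and 19.1% by DESeq2. Marker sums in LE differed between the groups without overlap for epithelium (3279 to 3959 CPM in control, 4251 to 5847 CPM in pregnant gilts) and leukocytes (101 to 208 and 80.1 to 99.7 CPM), and 7 of 10 epithelium markers passed, 4 higher and 3 lower. Their part in the results of LE was not tested. The median log2 FC was -0.16 for the receptors and 0.01 for all genes. In GE no receptor passed (unadjusted p below 0.0021), where 0.694% of all genes did. At an unadjusted p below 0.05, 3 of 54 receptors and 8.09% of all genes were found by the same test. The exact test of edgeR and the Wald test of DESeq2 each called 1 receptor, OXTR, beside 1.51% and 2.06% of all genes. The GE libraries of both groups did not overlap in 2 receptors and 4.92% of all genes. In S 3 of 55 receptors passed (GPR83, EDNRA and ADRA2A, unadjusted p below 0.0021), beside 1.47% of all genes. Because that threshold is unadjusted, the FDR of these calls was 0.0296, 0.132 and 0.116, and 7 receptors did not overlap between groups, beside 17.6% of all genes. The median log2 FC was -0.19 for receptors in GE and 0.22 in S, against -0.02 and 0.08 for all genes. Both signs turned with 1 gilt. Without gilt 02 the receptor median in GE was 0.19, and without gilt 01 that in S was -0.12. That of all genes was 0.01 in both fits.

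**Figure D1:**
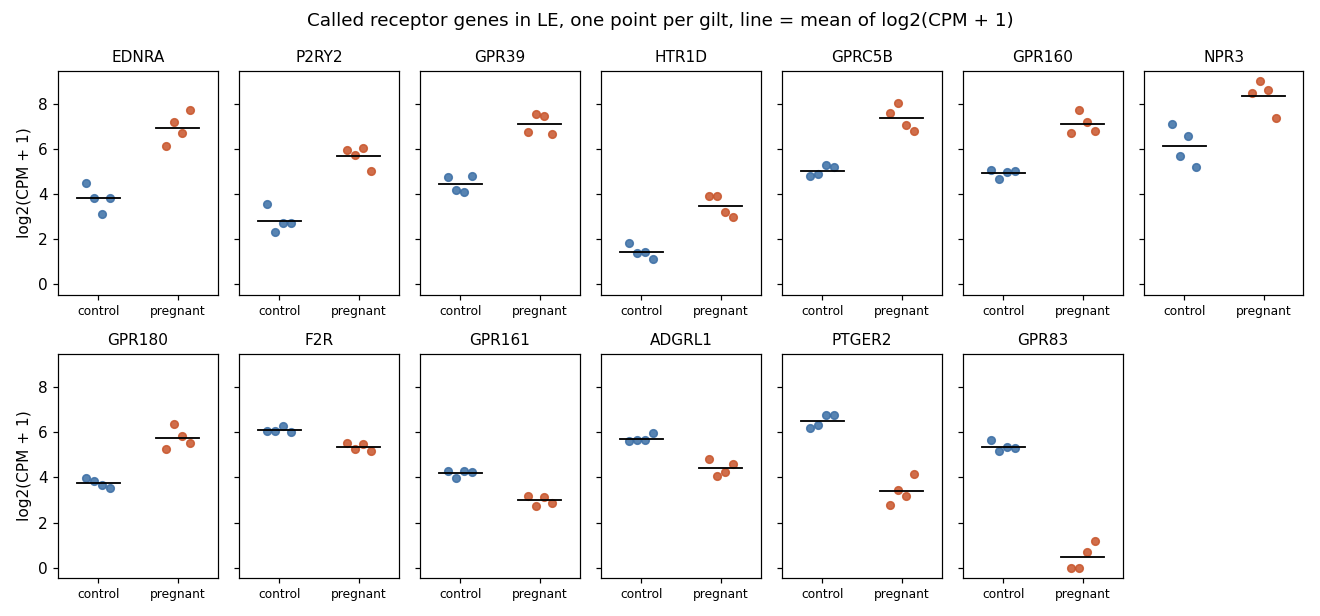
Levels of the 13 receptor genes called in LE, as log2(CPM + 1) on the vertical axis, for the 4 control (blue) and 4 pregnant (orange) gilts, with the mean of each group as a line. In each panel the pregnant libraries lie apart from the control libraries, above them for the 8 genes that rose and below them for the 5 that fell.

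Among receptors for vasoactive and hormone peptides, EDNRA, the endothelin receptor that contracts smooth muscle, rose most. Its level in control LE was 21.8, 13.4, 7.66 and 13.3 CPM and in pregnant LE 68.9, 145, 102 and 209.9 CPM, so that the lowest pregnant library was above the highest control library. The log2 FC was 3.24 ± 0.39 (SE, n = 4 and 4, FDR 0.000443), and the call held without any single gilt. In S it rose from 6.30, 18.7 and 6.22 CPM to 42.9, 74.3 and 169 CPM, a log2 FC of 3.18 ± 0.66 (n = 3 and 3, edgeR FDR 0.132). That call was lost without gilt 02, 05, 13 or 14 in turn, with log2 FC from 2.48 to 3.93 in the 6 fits that left out a gilt. GE gave 76.6, 21.0, 14.7 and 13.5 CPM in control and 37.3, 37.1, 27.2 and 83.8 CPM in pregnant libraries (log2 FC 0.57 ± 0.61, edgeR FDR 0.850). The only control library within the pregnant range was that of gilt 02, which had the high fibroblast sum and the high smooth muscle and pericyte sum. In S, all 10 fibroblast and all 9 listed blood endothelium markers had higher means in pregnant gilts, none past the threshold. The endothelial sum was 2109 CPM in pregnant gilt 01, which had the lowest EDNRA of the pregnant S libraries, and 468 and 301 CPM in the other pregnant gilts, within the control range of 272 to 499 CPM. The fibroblast sum was 62835 CPM in gilt 01 and 8314 and 12182 CPM in the others. That of smooth muscle and pericyte markers was 344 to 595 CPM in control S and 1806, 354 and 230 CPM in pregnant S of gilts 01, 05 and 14. Of the lymphatic endothelium markers, 2 of 5 rose, with a summed level of 7.01 to 15.7 CPM in control and 32.8 to 329 CPM in pregnant S. Their part in the result was not tested. EDNRB, the second endothelin receptor, did not pass in LE (70.2 to 104 CPM in control, 63.1 to 141 CPM in pregnant libraries, log2 FC 0.37 ± 0.25). In pregnant S, EDNRB was 296, 272 and 42.6 CPM against 72.0, 40.0 and 50.2 CPM in control S and did not pass (edgeR FDR 0.318). Without gilt 14, the pregnant gilt with the lowest level, it passed.

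OXTR passed the threshold in none of the cell types, although control and pregnant libraries did not overlap in any of them. In LE it was 38.0, 20.0, 36.9 and 116 CPM in control and 16.3, 0.519, 0.605 and 0.312 CPM in pregnant libraries. The highest pregnant value (14 counts) came from gilt 01, the shallowest library, and all other pregnant LE libraries had 1 or 2 counts. This library of gilt 01 also had the highest smooth muscle and pericyte (6100 CPM), fibroblast (20485 CPM) and blood endothelium sums (1668 CPM) in LE. Their part in its OXTR level was not tested. The log2 FC was -4.42 ± 1.02 with an FDR of 0.0125, just above the threshold, and without gilt 01 it was -6.69 with an FDR of 0.00108. In S, OXTR was 106, 13.4 and 90.1 CPM in control and 10.52, 4.69 and 6.74 CPM in pregnant libraries (log2 FC -3.30 ± 0.77, edgeR FDR 0.160), and without gilt 04, the control with the lowest level, it passed. GE held 21.4, 10.0, 14.2 and 9.18 CPM against 7.07, 2.11, 5.80 and 3.89 CPM (log2 FC -1.55 ± 0.45, edgeR FDR 0.421). EDNRA lies at chr8:81210750-81279053 and OXTR at chr13:65134055-65155543 (Sscrofa11.1), both on the minus strand.

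NPR3 rose in LE from 138, 51.0, 95.4 and 35.7 CPM to 353, 518, 392 and 166 CPM (log2 FC 2.16 ± 0.45, FDR 0.00741), with the highest control library close to the lowest pregnant library. This call was kept without gilt 02 or 14 and lost without any of the other gilts, with log2 FC from 1.92 to 2.56. It was also lost with only the 6 gilts that had an S library. CALCRL, which with RAMP proteins forms the receptors for adrenomedullin and CGRP and is typical of endothelium, did not pass in any cell type, with log2 FC of 0.44 ± 0.27 in LE, -0.51 ± 0.83 in GE and 0.58 ± 0.62 in S. Its levels moved with the blood endothelium markers. Control GE of gilt 13, with the lowest endothelial sum (66.4 CPM), had the lowest CALCRL (14.6 CPM), and control GE of gilt 02 had the highest in GE (372 CPM). AGTR1, an angiotensin II receptor, likewise did not pass (-0.16 ± 0.25, -0.86 ± 0.57 and 1.05 ± 0.60 log2 FC in LE, GE and S). BDKRB2, a bradykinin receptor listed for LE alone, had 1.04 to 6.64 CPM in control and 4.69 to 37.9 CPM in pregnant LE and missed the threshold (FDR 0.0194).

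**Figure D2:**
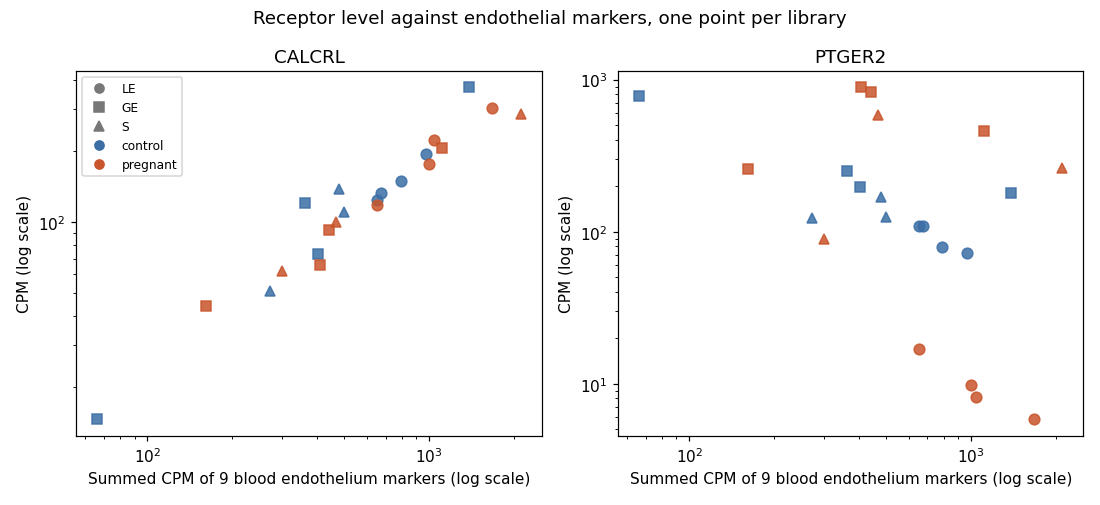
CPM of CALCRL (left) and PTGER2 (right) in each of the 22 libraries against the summed CPM of 9 blood endothelium markers in the same library, both axes on log scales, with shape for cell type and color for group. CALCRL climbs with the marker sum across libraries of all 3 cell types, whereas the lowest PTGER2 levels belong to the 4 pregnant LE libraries.

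The prostanoid receptors differed in their response. PTGER2 fell in LE from 72.3, 78.8, 109.6 and 109 CPM in control to 5.84, 9.87, 8.16 and 16.9 CPM in pregnant gilts, a log2 FC of -3.10 ± 0.30 (FDR 0.000139) that held without any single gilt. In GE it was 180.4, 252, 196 and 779.5 CPM in control and 459, 888, 827 and 260.2 CPM in pregnant libraries, where 1 control library, that of gilt 13, reached the pregnant range (log2 FC 0.79 ± 0.56, edgeR FDR 0.755). In S the levels were 170.1, 123 and 124 and 262, 586 and 88.8 CPM (log2 FC 1.17 ± 0.61, edgeR FDR 0.499), so that neither GE nor S showed the fall of LE. PTGER2 shares 2.1% of its exon bases with PTGDR on the same strand, and PTGDR did not pass in LE (log2 FC -0.79 ± 0.41). PTGFR was 23.2, 59.6, 69.3 and 48.3 CPM in control LE and 1.17, 14, 4.23 and 19.7 CPM in pregnant LE, without overlap. It missed the threshold with a log2 FC of -2.24 ± 0.56 and an FDR of 0.0178, and passed without gilt 14, the pregnant gilt with the highest level (log2 FC -2.84, FDR 0.00537). In S, gilt 14 again stood above the other pregnant libraries with 64.0 CPM against 8.90 and 4.35 CPM, and PTGFR passed there too without it, with a log2 FC of -2.73 in place of -0.66. PTGER4, a second Gs-coupled prostaglandin E receptor, stayed within 33.6 to 41.0 CPM in control and 24.5 to 38.4 CPM in pregnant LE (log2 FC -0.16 ± 0.19).

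**Figure D3:**
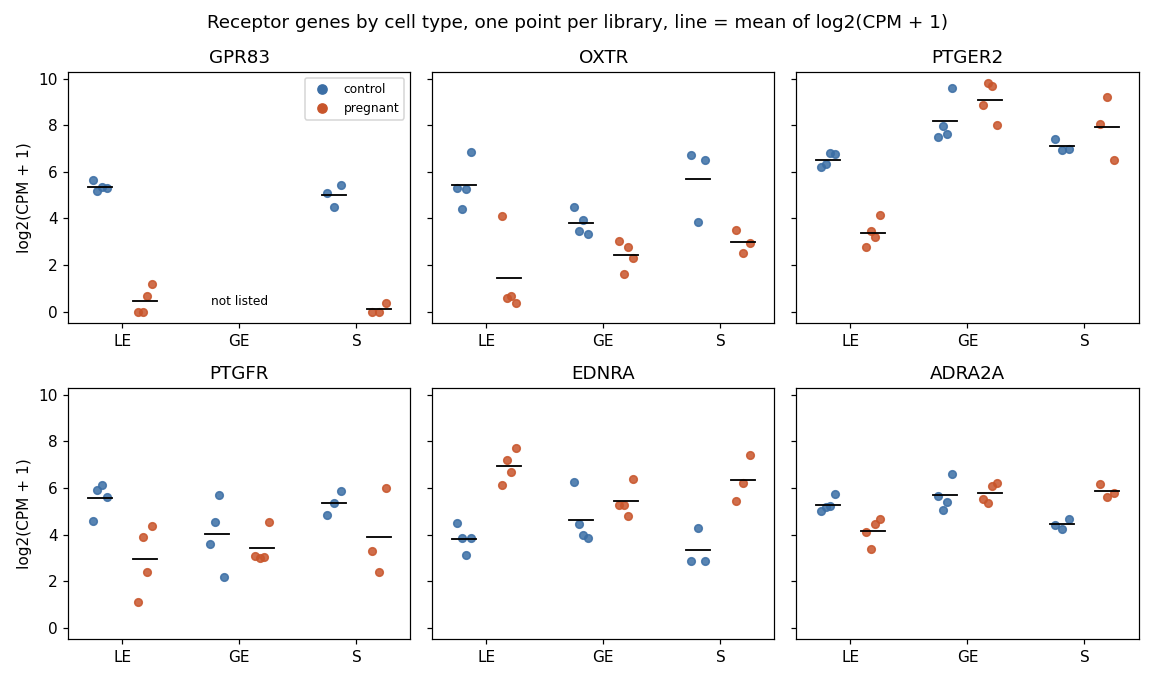
Levels of GPR83, OXTR, PTGER2, PTGFR, EDNRA and ADRA2A as log2(CPM + 1) in LE, GE and S, with control libraries in blue, pregnant libraries in orange and group means as lines. PTGER2 is low in pregnant LE alone, GPR83 is near 0 in pregnant LE and S, and ADRA2A lies lower in pregnant LE and higher in pregnant S.

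P2RY2, the receptor for extracellular UTP and ATP, rose in LE from 10.7, 4.01, 5.57 and 5.52 CPM to 60.7, 52.4, 65.9 and 31.5 CPM (log2 FC 3.04 ± 0.35, FDR 0.000341), and the call held without any single gilt. GE showed 2.47, 0, 4.16 and 0 CPM in control and 22.2, 6.94, 9.28 and 3.53 CPM in pregnant libraries, with 0 counts in 2 controls, and did not pass (log2 FC 2.56 ± 1.02, edgeR FDR 0.568). P2RY2 was not listed for S. The adenosine receptor ADORA2B was 16.3 to 35.9 CPM in control and 26.9 to 135 CPM in pregnant LE and missed the threshold (log2 FC 1.29 ± 0.43, FDR 0.0563). The other 3 genes of this group, P2RY1, P2RY12 and P2RY14, did not pass in any table that listed them.

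HTR1D, a serotonin receptor coupled to Gi, rose in LE from 2.58, 1.60, 1.74 and 1.15 CPM, close to the floor, to 14, 14, 8.16 and 6.87 CPM (log2 FC 2.56 ± 0.42, FDR 0.00221). The call was lost without gilt 04 (FDR 0.0116), when counts were thinned to the smallest library, and with only the 6 gilts that had an S library. HTR1D shares 2.5% of its exon bases with LUZP1 on the same strand. LUZP1 had means of 110 CPM in control and 177 CPM in pregnant LE and did not pass (log2 FC 0.68 ± 0.21, edgeR FDR 0.0445). Its part in the counts of HTR1D was not tested. ADRA2A, the Gi-coupled alpha-2A adrenergic receptor, passed in S by the edgeR quasi-likelihood test. In LE it was 31.0, 35.5, 36.2 and 53.2 CPM in control and 16.3, 9.35, 21.2 and 24.7 CPM in pregnant LE, without overlap (log2 FC -1.10 ± 0.30), but its FDR of 0.0267 missed the threshold, although the exact test of edgeR and DESeq2 called it. In S it rose from 20.1, 18.1 and 24.5 CPM to 72.0, 48.2 and 53.9 CPM (log2 FC 1.47 ± 0.28, edgeR FDR 0.116). This call was kept without gilt 05 and lost without any of the other 5 gilts, with log2 FC from 1.26 to 1.60. GE gave 32.0 to 96.7 CPM in control and 40.5 to 73.9 CPM in pregnant libraries (log2 FC 0.04 ± 0.37). No other amine receptor passed in a table that listed it.

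Of the protease-activated receptors, F2R (PAR1, the thrombin receptor) fell in LE from 66.1, 65.7, 77.3 and 64.0 CPM to 45.5, 37.4, 44.1 and 35.3 CPM, the smallest change called (log2 FC -0.76 ± 0.16, FDR 0.00907). It was kept only without gilt 01 and was otherwise lost when a gilt was left out, with log2 FC from -0.81 to -0.68. The call was also lost after thinning and with only the 6 gilts that had an S library. F2RL1 (PAR2, activated by trypsin) was 17.3, 17.1, 14.6 and 15.9 CPM in control and 0, 11.4, 2.12 and 9.06 CPM in pregnant LE (log2 FC -1.41 ± 0.57, FDR 0.108). In S, F2RL1 was 19.3, 11.7 and 17.2 and 0.809, 4.02 and 3.68 CPM (log2 FC -2.37 ± 0.55, edgeR FDR 0.155). Neither passed, although the groups did not overlap in either cell type. F2RL2 did not pass in any cell type (log2 FC -0.27 ± 0.24, -0.76 ± 0.50 and 0.93 ± 0.69 in LE, GE and S).

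GPR83, a receptor best known from brain and regulatory T cells, showed the largest change of all receptors in both cell types that listed it. In LE it was 49.1, 34.7, 39.7 and 38.9 CPM in control gilts and 0, 0, 0.605 and 1.25 CPM in pregnant gilts, from 546 counts in the control group to 6 in the pregnant group. The ratio of the summed counts per library size was 61.8 (exact 95% interval 28.2 to 169, counting error only), and the log2 FC was -5.92 ± 0.46 (FDR 5.18e-05). In S it was 32.7, 21.3 and 41.7 CPM in control and 0, 0 and 0.306 CPM in pregnant gilts, 270 counts against 1 (ratio 233, interval 41.4 to 9217, edgeR FDR 0.0296). Both calls held without any single gilt. GPR83 was not listed for GE. The gene lies at chr9:26549230-26560473 on the minus strand with 4 coding exons and shares no exon bases with another gene.

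GPR39, GPR160 and GPR180 also rose in LE. GPR39, a receptor activated by zinc, went from 26.2, 17.1, 16.4 and 27.4 CPM to 107, 185, 176 and 102 CPM (log2 FC 2.71 ± 0.28, FDR 0.000183). In GE it was 9.88, 29.6, 18.6 and 40.2 against 64.1, 47.4, 49.3 and 47.4 CPM without overlap and did not pass (log2 FC 1.08 ± 0.38, edgeR FDR 0.484), nor in S (log2 FC 1.21 ± 0.43, edgeR FDR 0.322). LYPD1, which covers 16.7% of the exon bases of GPR39 on the opposite strand, was not listed in any table. GPR160, an orphan receptor, rose in LE from 32.8, 24.8, 30.6 and 31.8 CPM to 104, 211, 145 and 112 CPM (log2 FC 2.26 ± 0.24, FDR 0.000250). PHC3 shares 42.3% of its exon bases on the opposite strand and did not pass in LE (log2 FC -0.32 ± 0.14). GPR180 rose in LE from 14.8, 13.4, 11.8 and 10.6 CPM to 37.4, 81.0, 56.8 and 45.3 CPM (log2 FC 2.14 ± 0.26, FDR 0.000498). These 3 calls held without any single gilt.

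GPR161, which sits in primary cilia and restrains hedgehog signaling, fell in LE from 18.5, 14.7, 18.4 and 18.2 CPM to 8.17, 5.71, 7.86 and 6.25 CPM (log2 FC -1.33 ± 0.25, FDR 0.00484). The call was kept only without gilt 01 among the 8 fits that left out a gilt (log2 FC -1.41 to -1.25). It was also lost after thinning and with only the 6 gilts that had an S library. Of the 17 numbered genes in LE, 5 passed, 3 higher and 2 lower, with a median log2 FC of -0.39. In GE none of 17 passed, and in S 1 of 19 passed, GPR83.

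Of the GPRC5 group, retinoic acid-inducible genes without a known ligand, 1 of 3 passed in LE. GPRC5B rose from 26.6, 28.9, 38.3 and 35.7 CPM to 193, 262, 132 and 111 CPM (log2 FC 2.42 ± 0.28, FDR 0.000368), a call that held without any single gilt. GPRC5A was 42.1, 39.8, 32.0 and 36.6 CPM in control and 54.9, 54.5, 63.2 and 132 CPM in pregnant LE, without overlap, and missed the threshold (log2 FC 1.03 ± 0.29, FDR 0.0291). GPRC5C was 35.0 to 42.1 and 33.3 to 68.7 CPM (log2 FC 0.21 ± 0.24). For GE and S the log2 FC were 0.60 ± 0.68 and 1.15 ± 0.47 for GPRC5B, and none of the 3 genes passed.

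Adhesion receptors carry long extracellular parts that bind matrix and neighboring cells. Of 13 listed for LE, 1 passed, ADGRL1 (latrophilin 1), which fell from 48.0, 49.2, 49.8 and 61.4 CPM to 26.9, 15.6, 17.8 and 23.1 CPM (log2 FC -1.35 ± 0.21, FDR 0.00180). The call held without any single gilt and was lost with only the 6 gilts that had an S library. The median log2 FC of the 13 was -0.32. In GE none of 14 passed, and the median log2 FC was -0.41, against -0.02 for all genes. Without gilt 02 the median of all 54 receptors in GE was 0.19 in place of -0.19. Endothelial marker sums moved with some of these genes. ADGRL4, a receptor of endothelium, was 194 CPM in control GE of gilt 02 and 7.56 CPM in that of gilt 13, the libraries with the highest and lowest sum, and their part in the result was not tested. In S none of 14 passed. ADGRF1 was 100.001, 17.2 and 28.6 CPM in control and 6.47, 3.68 and 6.74 CPM in pregnant S, without overlap (log2 FC -3.11 ± 0.73, edgeR FDR 0.160). ADGRD1, whose highest S level was in gilt 01 (168 CPM, against 20.1 and 43.8 CPM in the other pregnant gilts), had a log2 FC of 2.06 ± 0.76 (edgeR FDR 0.336). ADGRA3 was 494 to 714 CPM in control and 291 to 536 CPM in pregnant LE (log2 FC -0.61 ± 0.21, FDR 0.0626).

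**Figure D4:**
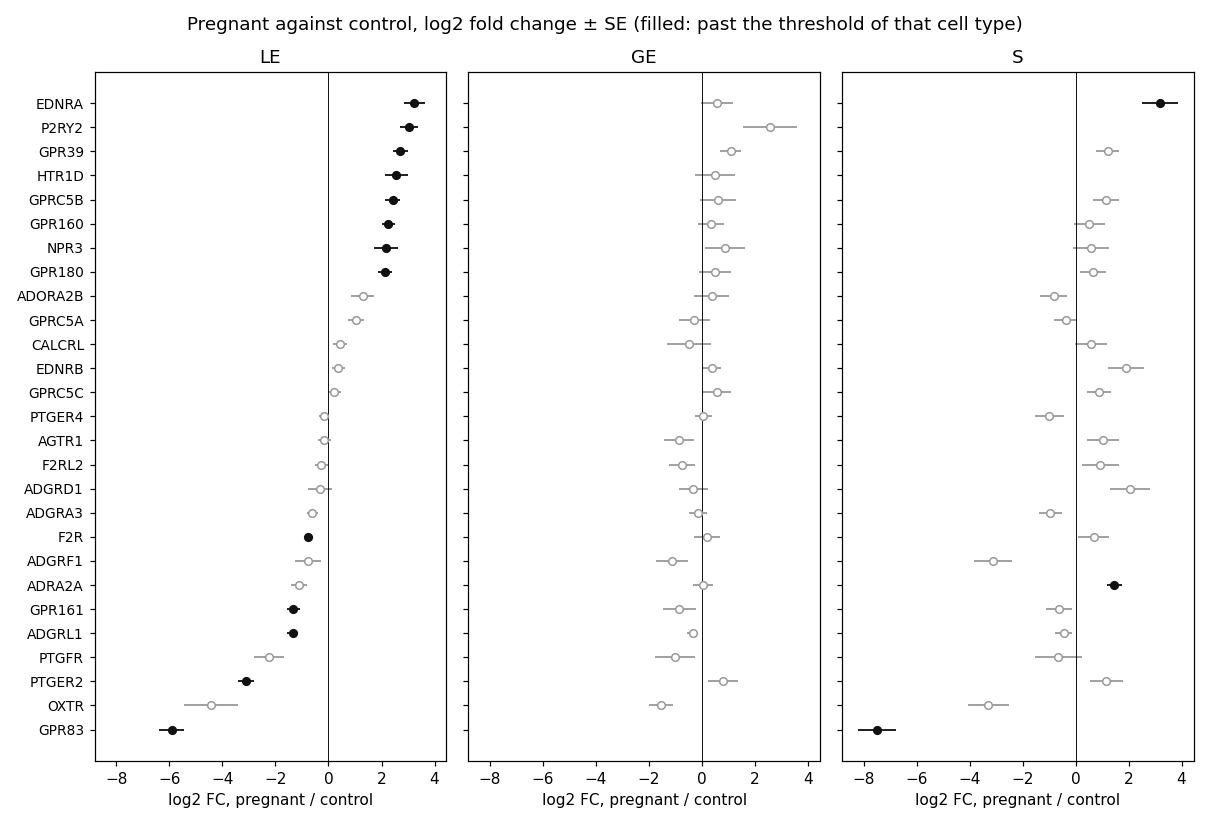
Log2 fold change of pregnant against control gilts with its standard error for 27 receptor genes in LE, GE and S, ordered by the change in LE, with filled points for calls. The 13 filled points in LE spread over both directions, GE has none, and S has 3, EDNRA and ADRA2A to the right and GPR83 to the left.

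The next comparison asked in which epithelium each receptor was more abundant, over control and pregnant gilts together. Between GE and LE, 13 of 50 receptors listed for both passed (FDR below 0.01), 7 higher in GE and 6 higher in LE, beside 14.1% of all genes (8.54% higher in GE and 5.56% higher in LE). Of 10 epithelium markers, 3 passed as higher in LE and 0 as higher in GE, with a median log2 FC of -0.57. Of 10 fibroblast markers, 0 passed. The part of cell content in the receptor differences was not tested. PTGER2 had the largest difference, with a mean of 480.3 CPM in GE and 51.3 CPM in LE (log2 FC 3.90 ± 0.38, FDR 2.71e-05). GPRC5C (1.72 ± 0.32), ADGRD1 (1.59 ± 0.39), EDNRB (1.08 ± 0.24) and ADRA2A (1.08 ± 0.25) followed on the log2 scale, with GPR155 (0.98 ± 0.25) and ADGRL1 (0.77 ± 0.15). Higher in LE were GPRC5A (-2.27 ± 0.34), P2RY2 (-2.08 ± 0.51), ADGRF1 (-2.01 ± 0.41), ADORA2B (-2.00 ± 0.42), GPRC5B (-1.63 ± 0.39) and ADGRG2 (-1.57 ± 0.38). These are means over both groups. PTGER2 was 352 CPM in GE and 92.5 CPM in LE in control gilts, and 609 and 10.2 CPM in pregnant gilts. In control gilts ADGRL1 was 62.4 CPM in GE and 52.1 CPM in LE, and in pregnant gilts 48.7 and 20.8 CPM. GPRC5B was 19.4 and 32.3 CPM in control gilts and 29.4 and 174 CPM in pregnant gilts. For GPRC5C the values were 112 and 38.7 CPM, and 165 and 44.3 CPM. The differences in response did not pass (edgeR FDR 0.0209 for PTGER2, 0.128 for ADGRL1, 0.315 for GPRC5B, 0.874 for GPRC5C). ZSWIM7, which overlaps ADORA2B, did not pass (log2 FC -0.05 ± 0.30). SCRN3, which shares 44.3% of the exon bases of GPR155 on the opposite strand, had a log2 FC of 0.60 ± 0.25 in the direction of GPR155 (edgeR FDR 0.0852), and reads of the pair could not be told apart. With the gilt as a replicate block, 14 receptors passed, beside 15.2% of all genes. Under the block, the call of GPR155 was lost (FDR 0.0212 in place of 0.00905) and NPR3 (FDR 0.000793 in place of 0.0104) and the muscarinic receptor CHRM3 (FDR 0.00205 in place of 0.0198) were gained, both higher in LE. PTGER2, GPRC5A and GPRC5C passed without any single gilt, but the count fell to 3 without gilt 03, 8 without gilt 04 and 7 without gilt 05.

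**Figure D5:**
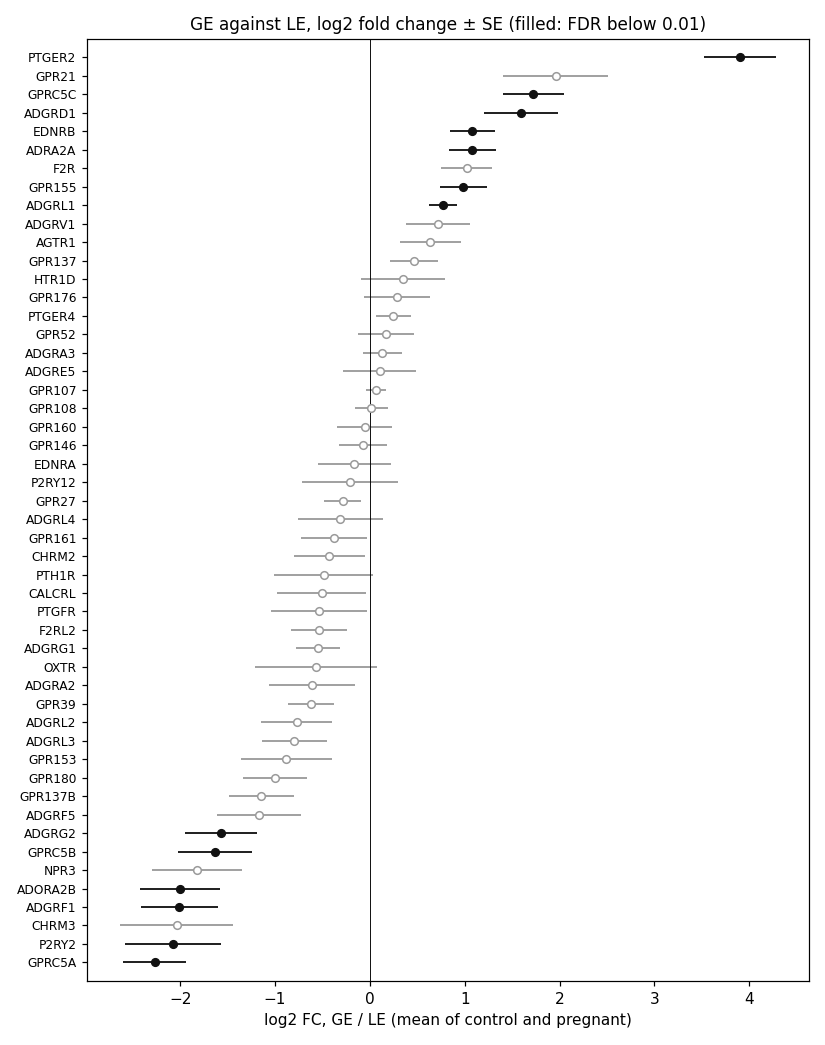
Log2 fold change of GE against LE with its standard error for the 50 receptor genes listed for both, as the mean of the control and the pregnant difference, sorted by size, with filled points for an FDR below 0.01. PTGER2 stands alone at 3.90 at the GE end, and GPRC5A, P2RY2, ADGRF1, ADORA2B, GPRC5B and ADGRG2 are the filled points at the LE end.

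Between S and LE 1 of 51 receptors passed, PTGER2, with a mean of 226 CPM in S (log2 FC 2.70 ± 0.34, FDR 0.00191), beside 0.514% of all genes. In control gilts PTGER2 was 139 CPM in S and 92.5 CPM in LE, and in pregnant gilts 312 and 10.2 CPM. With the replicate block its FDR was 0.0142, no receptor passed, and 1.36% of all genes did. The call was also lost without gilt 02, 04 or 13, and without gilt 01 the count rose to 5. Between S and GE, 0 of 50 receptors and 0% of all genes passed the edgeR test, 6 receptors had an unadjusted p below 0.05, beside 6.77% of all genes, and DESeq2 called 0 receptors.

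Whether pregnancy acted differently on a receptor in 2 cell types was tested by the difference of the log2 FC. No receptor and 0% of all genes passed an FDR of 0.01 in the edgeR test of any pair, with 10 of 50 receptors at an unadjusted p below 0.05 for GE against LE, 14 of 51 for S against LE and 5 of 50 for S against GE, beside 13.3%, 11.4% and 4.40% of all genes. DESeq2 called 1, 2 and 0 receptors. PTGER2 came closest, with a difference of 3.92 ± 0.71 between GE and LE (FDR 0.0209, and 0.0250 with the replicate block) and of 4.25 ± 0.69 between S and LE (FDR 0.111). For ADRA2A the difference between S and LE was 2.53 ± 0.42 (FDR 0.111). For EDNRA, the GE response was -2.67 ± 0.77 relative to LE (FDR 0.121, and 0.0311 with the block).

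Genes that act behind the receptors were counted beside the 10.0% of all genes called in LE and the 1.47% in S. Of 21 G protein subunit genes, 2 passed and both fell, GNAQ (the alpha subunit of Gq) from 144 ± 39.6 to 62.6 ± 13.4 CPM (mean ± SD, n = 4 each) with a log2 FC of -1.19 ± 0.23, and GNG2 with a log2 FC of -2.32 ± 0.29. Of 8 RGS genes, which shorten G protein signals, 2 fell. RGS4 was 89.3 to 242 CPM in control and 4.23 to 14.4 CPM in pregnant LE (log2 FC -4.33 ± 0.44), and it also fell in S, from 79.4 to 171 to 3.06 to 11.3 CPM (log2 FC -4.53 ± 0.57). RGS14 was 7.82 to 10.7 CPM in control and 0 to 2.33 CPM in pregnant LE. No gene of 10 GRKs and arrestins passed in LE by the edgeR test, and none of them had an unadjusted p below 0.05.

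Among 20 enzymes of second messengers, ADCY7 (an adenylate cyclase, log2 FC 1.67 ± 0.23) and PDE8A (a cyclic AMP phosphodiesterase, 1.26 ± 0.17) rose in LE, and PDE3A (-1.69 ± 0.34) and PLCB4 (a phospholipase C of the Gq pathway, -2.20 ± 0.32) fell. PLCB1 was the gene of this list that passed in S, with a log2 FC of -1.31 ± 0.26. Of 6 RAMP and receptor transport genes, REEP5 rose in LE (1.53 ± 0.24). In GE no gene of these 5 lists passed by the edgeR test. At an unadjusted p below 0.05, which 8.09% of all GE genes had, there were 1 of 20 subunit genes, 2 of 8 RGS genes, 0 of 10 GRKs and arrestins, 0 of 5 RAMP and transport genes and 1 of 20 enzymes.

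Ligands and the enzymes that make or remove them were listed for 19 genes in LE, of which 6 passed, beside 10.0% of all genes. PTHLH (parathyroid hormone-related protein, log2 FC 5.14 ± 0.84), NMB (neuromedin B, 2.67 ± 0.57), PSAP (prosaposin, 1.92 ± 0.21) and ENTPD3 (which breaks down extracellular nucleotides, 1.66 ± 0.28) rose. HDC, which makes histamine, fell from 67.9 to 162 CPM in control to 0 to 8.43 CPM in pregnant LE (log2 FC -4.45 ± 0.59), and MAOB, which breaks down amines, fell by 1.52 on the log2 scale. In GE, NMB rose (2.54 ± 0.57), the 1 gene of 17 that passed there, beside 0.694% of all genes. HDC fell in S from 67.3 to 102 CPM to 7.03 to 11 CPM (log2 FC -3.16 ± 0.33), the 1 gene of 17 that passed in S, beside 1.47% of all genes.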

How the data were processed

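Cells of LE, GE and S were captured by laser from sections of 8 gilts, and single-read libraries were made from the RNA with molecular tags. The authors aligned reads to Sscrofa11.1, removed PCR duplicates by the tags, filtered genes on CPM (counts scaled to a common library total) and deposited 1 table of raw read counts per cell type. How reads were counted, whether strand was used and where the filter was set are not given in the sources used here. Because each table lists only genes that passed that filter, a gene not listed is not shown to be absent.

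The deposited counts were scaled by the trimmed mean of M values and tested with the quasi-likelihood test of edgeR 4.0.16 (R 4.3.3) over all listed genes, with the thresholds of the study (FDR below 0.01 in LE, unadjusted p below 0.0021 in GE and S). FDR is the Benjamini-Hochberg adjusted p, and the SE of a log2 FC was taken from its F statistic. Cell types were compared pairwise over genes listed in both tables (FDR below 0.01), for the mean of the control and pregnant difference and for the difference in response. DESeq2 1.42.0, the exact test of edgeR, limma 3.58.1 with the gilt as a random block, other scalings and filters, thinning and leaving out gilts were alternatives. The scripts were tested on simulated data. Libraries of the same gilt come from the same animal by the labels, and deviations from the group mean correlated within the gilt above 0.1 in 6 of 8 gilts for GE and LE, 6 of 6 for S and LE and 5 of 6 for S and GE.

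All 12401 genes were matched to the NCBI annotation of Sscrofa11.1 for symbols, exon lengths and upstream sequence. Receptors named with values were those called in any cell type, GPR83, the prostanoid receptors, OXTR, EDNRA, EDNRB, CALCRL and AGTR1, the 5 with the highest level per kb in each cell type, and the 5 largest called differences in each direction between cell types or those differing in response. Other receptors given with values were chosen after their values were seen: BDKRB2, F2RL1, ADGRL4, GPR155, ADGRG2 and CHRM3. The receptors and all gene lists were chosen with earlier results of these data known. Intervals and floors cover counting error only.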

Additional observations from a re-analysis of the deposited data

Results flagged for a closer look

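Of 106 groups of 4 libraries examined for a library far from the other 3, 13 were found. The limit used gives about 1 in 20 by chance for normally distributed values, which CPM of chosen receptors need not follow, so that the number found is not read as an excess. In control LE these were ADGRL1 at 61.4 CPM and F2RL2 at 415 CPM in gilt 13, F2R at 77.3 CPM in gilt 06 and GPR161 at 14.7 CPM in gilt 04. In pregnant LE they were GPRC5A at 132 CPM and GPRC5C at 68.7 CPM in gilt 14, and OXTR at 16.3 CPM in gilt 01. In control GE they were EDNRA at 76.6 CPM in gilt 02 and PTGER2 at 779.5 CPM in gilt 13, the libraries with the highest and lowest blood endothelium sums. In pregnant GE they were ADGRD1 at 97.9 CPM and GPR39 at 64.1 CPM in gilt 01, F2R at 240.0 CPM in gilt 05 and PTGFR at 22.3 CPM in gilt 14.

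The log2 FC for pregnancy of PTGER2 differed by 3.92 between GE and LE at an edgeR FDR of 0.0209, which passes 0.05 and not the 0.01 used for calls. ADRA2A had a log2 FC of -1.10 in LE and 1.47 in S, without overlap between groups in either, and the difference had an edgeR FDR of 0.111.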

How the results depend on the processing

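The 13 calls in LE were 8 with only the 6 gilts that had an S library and 9 to 14 when each gilt was left out, and 19 by the exact test, 18 by DESeq2, 19 at an FDR below 0.05, 11 after thinning and 9 of 39 receptors with at least 10 counts in every library. The shares of all LE genes were 3.81% with those 6 gilts and 5.15% to 14.4% without single gilts. They were 18% by the exact test, 19.1% by DESeq2, 22.4% at an FDR below 0.05, 9.07% after thinning and 10.1% with the count limit. In GE, 0 became 1 by the exact test and 1 by DESeq2, beside 1.51% and 2.06% of all genes. In S, 3 became 6 by the exact test, 6 by DESeq2 and 1 at an FDR below 0.05, and 1 to 4 without single gilts, with 1 without gilt 02 or 13. Of all S genes, 3.82% passed by the exact test, 4.44% by DESeq2 and 0.251% at an FDR below 0.05. Between GE and LE, 13 ranged from 3 to 11 without single gilts. With the gilt as a replicate block the count was 14, beside 15.2% of all genes, and 18 with a random replicate block. Between S and LE, 1 became 0 with the fixed replicate block and 3 with the random block, 3 by DESeq2 and 3 at an FDR below 0.05, and 0 to 5 without single gilts. For the response, 0 between GE and LE became 1 by DESeq2 and 1 at an FDR below 0.05 (0 to 1 without single gilts), and 0 between S and LE became 2 by DESeq2 (0 to 1). Where not shown by fewer samples, the cause was not tested. For the named receptors, 1097 values under alternatives kept their side of the threshold, 40 were no longer past it, 22 were newly past it and none reversed a call. Values that did not pass in either fit could change direction. ADGRD1 in LE, for example, had a log2 FC from -0.64 to 0.01 without single gilts. Scaling by library size alone moved the median log2 FC of all genes in LE from 0.01 to -0.14 and kept all 13 calls, while EDNRA was lost in S.

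After 1 random thinning of the counts to the smallest library, the LE calls of HTR1D, F2R and GPR161 were lost. PTGFR was gained, and the call of P2RY2 was kept. The part of depth in these calls was not tested apart.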
